A study of Mus musculus with 157 samples.

Results

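The 44 genes described here encode proteins of the kinetochore, the mitotic spindle and the kinases and cyclins of mitosis. They were taken as a list of symbols, matched to their Ensembl mouse identifiers in the 2 deposited gene tables, and make up 44 of the 50686 genes in each table. No measured value entered the choice of a symbol, although the list was drawn up by someone who knew earlier results of these data. All 44 were protein-coding genes in GENCODE M21 and lay on 17 chromosomes.

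The study sequenced bulk RNA from mouse thymocytes and thymic lymphomas of control mice and of mice that its title calls aneuploid, in 157 libraries that fall into 23 groups. The protocol states that cells of each thymic population were sorted straight into lysis buffer, and that tumours were taken without sorting unless the label says otherwise. The earlier run of 81 libraries holds the sorted stages DN1, DN2, DN3, DN4 and DP and the early tumours, and the later run of 76 libraries holds whole thymus and tumours. The labels give neither age, sex nor treatment, and do not say whether libraries of a group came from separate mice, so each p-value measures only the spread between these libraries.

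Every RERT2 group carries a D allele of Cdc20, the controls included: the controls are RERT2-Cdc20(+/D), written +/D below, and the other genotype is RERT2-Cdc20(D/AAA), written D/AAA. Cdc20 activates the ubiquitin ligase that starts anaphase, and AAA is a Cdc20 allele known for escaping the spindle checkpoint. The +/D sorted groups held 6 (DN1), 8 (DN2), 8 (DN3), 8 (DN4) and 7 (DP) libraries, and the D/AAA sorted groups held 9 (DN1), 1 (DN2), 5 (DN3), 6 (DN4) and 11 (DP). Early tumours of D/AAA mice were sorted as DP in 5 libraries and left unsorted in 7. Whole thymus was taken from +/D (6 libraries), D/AAA (9), +/D with MYCChr6 (2) and D/AAA with MYCChr6 (3). The tumour groups were D/AAA (22), D/AAA with p53(+/D) (10), D/AAA with MYCChr6 (3), LCK-Cdc20(D/AAA) with MYCChr6 (14), LCK-Cdc20(+/D) with MYCChr6 (4), CD4-Cdc20(D/AAA) with MYCChr6 (2) and p53(-/-) (1). What the RERT2, LCK and CD4 elements drive, and in which cells, is not given in the labels.

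Kinetochores are protein assemblies built on centromeric chromatin that hold chromosomes to spindle microtubules and signal to the spindle checkpoint when the attachment is missing. Inner kinetochore proteins sit on the nucleosome that contains CENP-A, outer kinetochore proteins grip microtubules, and the chromosomal passenger complex with its kinase Aurora B corrects faulty attachments. Thymocyte precursors lack CD4 and CD8 in the DN stages, gain both at DP, and divide most in the stages just before and during the gain of CD4 and CD8. The mRNAs of most mitotic genes rise late in the cell cycle, through promoters that often carry a cell cycle homology region (CHR) and CCAAT boxes, bound by DREAM, MuvB with B-Myb and FOXM1, and NF-Y.

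Promoter stretches of 9 members are printed below. Of these, 6 hold the shared elements of the set (Ccnb2, Cdk1, Kif23, Cenpf, Cdca8, Top2a). The others show that members with wide changes in some comparisons can have them (Cenpw) or lack them within the printed stretch (Cenph, Nuf2). Cenph has a CCAAT match just beyond its stretch. Each runs from 80 bases before to 30 bases from the start of transcription, 5′ to 3′ on the gene's strand, from RefSeq on GRCm38.p6; all 9 genes lie on the minus strand. The coordinates are chr9:70421525-70421634 for Ccnb2, chr10:69352883-69352992 for Cdk1, chr9:61946770-61946879 for Kif23, chr1:189688057-189688166 for Cenpf, chr4:124936888-124936997 for Cdca8, chr11:99024160-99024269 for Top2a, chr10:30200511-30200620 for Cenpw, chr13:100775870-100775979 for Cenph and chr1:169531435-169531544 for Nuf2. Capitals mark the letters of the CHR, spelled TTTGAA, wherever they stand on either strand. They also mark the CCAAT box, again read on both strands of the stretch.
Ccnb2: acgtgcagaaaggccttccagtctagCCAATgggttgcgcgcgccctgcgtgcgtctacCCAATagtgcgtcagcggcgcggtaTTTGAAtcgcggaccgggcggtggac
Cdk1: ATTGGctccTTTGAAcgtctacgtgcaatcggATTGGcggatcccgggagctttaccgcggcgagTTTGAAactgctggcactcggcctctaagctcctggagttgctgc
Kif23: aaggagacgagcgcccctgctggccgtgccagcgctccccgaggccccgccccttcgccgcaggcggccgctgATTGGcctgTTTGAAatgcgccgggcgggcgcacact
Cenpf: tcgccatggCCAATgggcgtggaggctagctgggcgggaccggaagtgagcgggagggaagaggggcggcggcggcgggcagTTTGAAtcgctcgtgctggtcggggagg
Cdca8: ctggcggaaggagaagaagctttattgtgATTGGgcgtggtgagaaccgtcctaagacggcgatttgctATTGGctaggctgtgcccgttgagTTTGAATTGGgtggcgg
Top2a: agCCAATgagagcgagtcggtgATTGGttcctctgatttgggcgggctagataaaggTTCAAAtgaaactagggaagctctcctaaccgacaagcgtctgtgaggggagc
Cenpw: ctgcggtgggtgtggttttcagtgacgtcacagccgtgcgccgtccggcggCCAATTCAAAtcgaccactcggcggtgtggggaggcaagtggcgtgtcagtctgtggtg
Cenph: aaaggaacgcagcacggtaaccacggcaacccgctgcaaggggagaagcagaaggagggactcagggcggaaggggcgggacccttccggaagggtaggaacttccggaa
Nuf2: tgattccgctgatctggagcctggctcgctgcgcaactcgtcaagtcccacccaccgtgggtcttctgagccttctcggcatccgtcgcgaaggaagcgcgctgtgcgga

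The promoter table held a window of 300 bases for 36 of the 44 members. TTTGAA on either strand within 50 bases of the start was found in 21 of these 36 (58.3%), against 1330 of all 27025 genes with a window (4.92%). CCAAT on either strand in the 150 bases before the start was found in 21 of 36 members (58.3%), against 25.3% of all genes. Both together were found in 17 of 36 members (47.2%) and in 1.37% of all genes. In Cenpw and Cdca8 a CHR and a CCAAT match overlap by a base or more, as the unbroken capitals show. These matches describe letters in a window; they are neither shown to be bound nor linked by any test to the changes below.

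Library totals ran from 2701382 to 11595463 counts in the earlier run, with 1 exception, and from 1708619 to 8009572 in the later run. The exception was replicate 8 of DN1 D/AAA with 21199 counts, which entered the D/AAA test at DN1; without it that test also called no member. The entry CT010467.1 took 30.1 to 56.0% of the counts of each later library and 0.22 to 2.68% of each earlier one, so levels, in CPM (the counts of a gene scaled to a fixed library total), are compared only within a run. The stage labels were checked against their markers in the +/D groups. Il2ra, the CD25 gene, averaged 13.9 CPM at DN1, 650.3 at DN2, 492 at DN3 and 8.34 at DN4. Cd4 averaged 25.02 CPM at DN4 and 1870 at DP. The D/AAA groups were less uniform. At DN1 their Cd4 ran from 1.164 to 215.2 CPM, against 0.2453 to 9.707 in +/D. At DP it ran from 307.1 to 1980 CPM, against 1586 to 2124 in +/D. Their Cd8b1 at DN1 reached 738 CPM, against at most 17.42 in +/D. Cdc20 itself did not separate the genotypes in these gene counts, which do not tell its alleles apart: its D/AAA to +/D log2 fold change lay between -0.06 (DN1) and 0.52 (DN3) in the sorted stages and was 0.25 in whole thymus, with no adjusted p under 0.05.

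**Figure D1:**
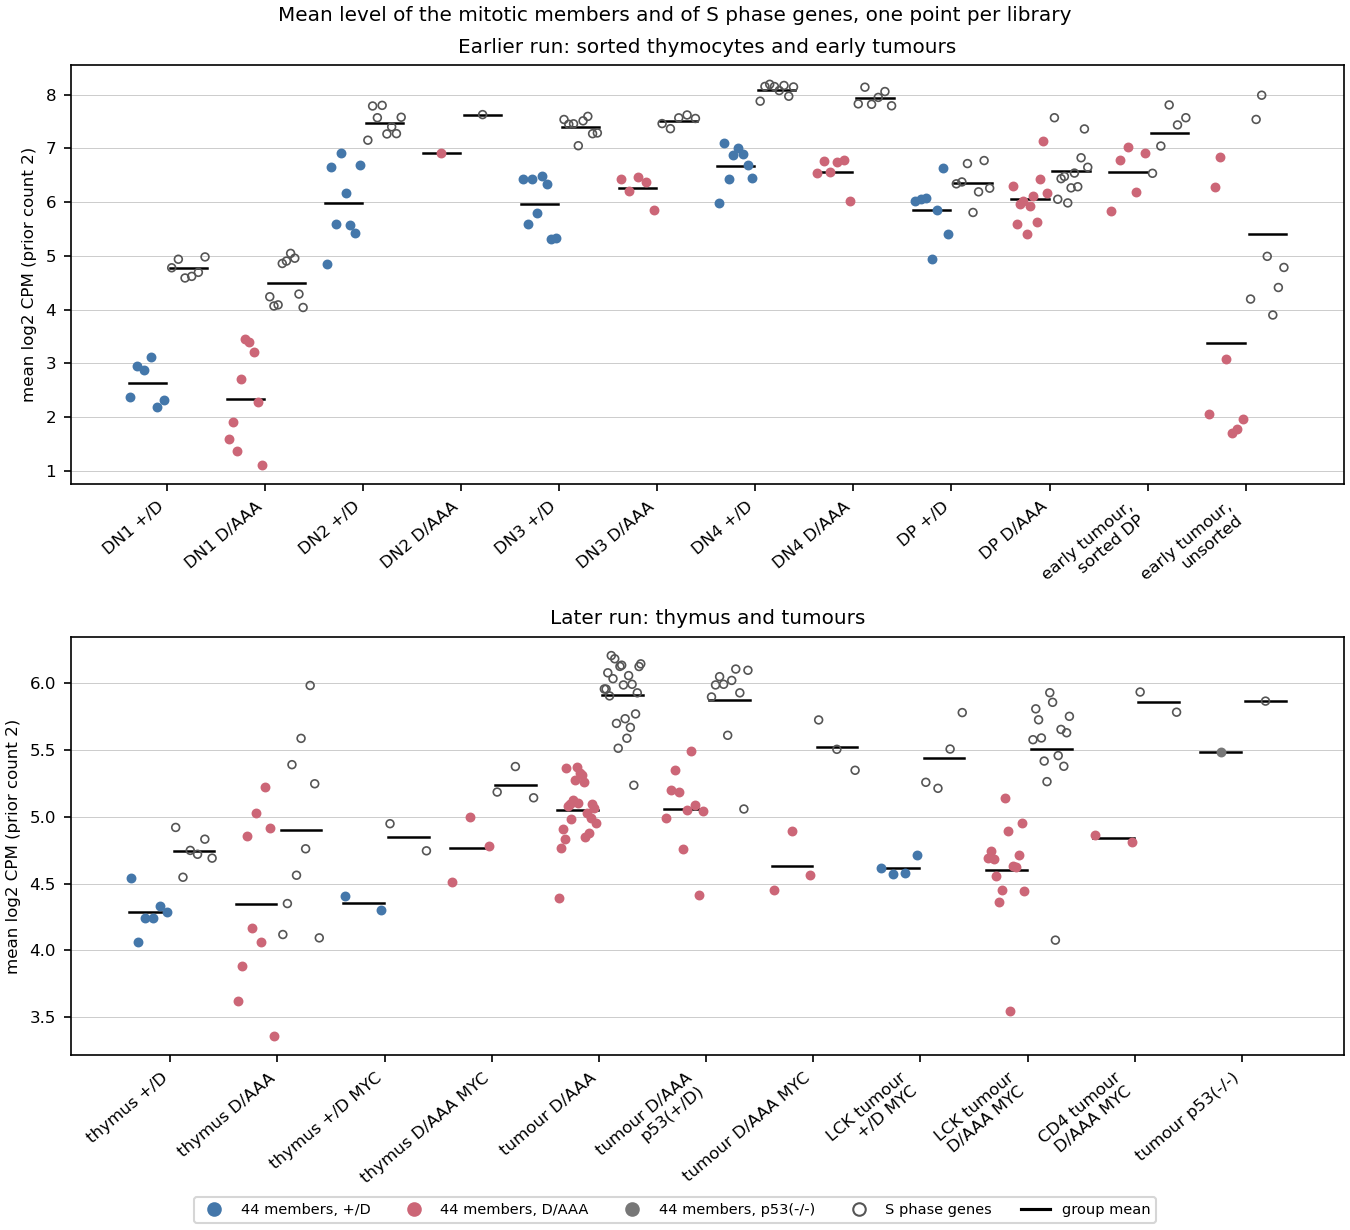
Mean log2 CPM (y axis, prior count 2) over the 44 members (filled points) and over 36 S phase genes (open points), 1 point per library, by group (x axis), with a bar at each group mean; the DN1 D/AAA group includes its shallow replicate 8. In the +/D stages the member mean is lowest at DN1 and highest at DN4, and the S phase mean falls further than the member mean from DN4 to DP.

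From DN1 to DN2, all 44 members rose in the +/D cells, with a median log2 fold change of 3.41 and a range from 1.67 (Cenpw) to 4.58 (Anln). Of all 15278 genes tested, 24.6% rose in that step, and their median change was 0.00; over the 19 comparisons made here that median lay between -0.07 and 0.05. The DN1 and DN2 values did not overlap for 39 of the 44 members, against 11.6% of all genes that lay higher at DN2 without overlap. In bulk RNA, fewer dividing cells and less RNA per cell cannot be told apart, here or in any comparison that follows.

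Sgo1, a shugoshin that guards centromeric cohesion, ran from 0 to 5.15 CPM (median 1.42) at DN1 and from 15.01 to 70.3 CPM (median 36.1) at DN2, with a log2 fold change of 4.48 ± 0.52 (SE, adjusted p = 3.04e-09) in edgeR's quasi-likelihood test with Benjamini-Hochberg adjustment over all genes. Anln, the cytokinetic scaffold anillin, ran from 0.157 to 5.15 CPM (median 0.428) at DN1 and from 8.004 to 76.5 CPM (median 39.97) at DN2, with a log2 fold change of 4.58 ± 0.54 (SE, adjusted p = 5.92e-09). Kif4, a chromosome-bound kinesin, ran from 0.639 to 7.05 CPM (median 1.35) and from 15.1 to 65.5 CPM (median 46.2), with a log2 fold change of 4.23 ± 0.42 (SE, adjusted p = 5.4e-11). Every DN2 library lay above every DN1 library for these 3 genes.

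Cenpa, the centromeric histone H3 variant, had levels of 17.7 to 35.2 CPM (median 25.8) at DN1 and 68.6 to 268 CPM (median 127) at DN2, with a log2 fold change of 2.43 ± 0.36 (SE, adjusted p = 6.1e-07). Plk1, the kinase of mitotic entry and spindle formation, had levels of 5.16 to 16.4 CPM (median 8.62) and 40.5 to 272 CPM (median 83.3), with a log2 fold change of 3.70 ± 0.50 (SE, adjusted p = 1.24e-07). Cdk1, the kinase that drives mitotic entry, had levels of 2.896 to 18.4 CPM (median 14.2) and 48.2 to 266 CPM (median 102), with a log2 fold change of 3.42 ± 0.42 (SE, adjusted p = 1.77e-08). The groups did not overlap for any of these 3 genes, and the DN2 libraries alone spanned several-fold. Log2 fold changes were 3.04 ± 0.43 for Ndc80 (the microtubule-binding subunit of the outer kinetochore), 3.20 ± 0.36 for Aurkb (Aurora B), 3.63 ± 0.38 for Ccnb2 (cyclin B2), 3.99 ± 0.38 for Kif11 (the kinesin that pushes spindle poles apart), 3.20 ± 0.47 for Prc1 (the microtubule bundler of the central spindle), 2.98 ± 0.34 for Mki67 (the Ki-67 coat of mitotic chromosomes) and 3.62 ± 0.32 for Top2a (topoisomerase II alpha), all with adjusted p under 0.05.

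Other lists moved at the same step. Of 72 other mitotic genes, 68 rose (median 3.03), among them Oip5 (5.93), which loads CENP-A, and all 36 S phase genes rose (median 2.45). All 10 markers of natural killer and innate lymphoid cells fell, and their summed level ran from 4568 to 5705 CPM (median 5342, 10 of 10 markers present) at DN1 and from 398 to 749 CPM (median 603, 7 of 10 markers present) at DN2. The B cell marker sum ran from 1058 to 3511 CPM (median 1607, 6 of 6 markers present) at DN1 and from 74.4 to 247 CPM (median 142, 5 of 6 markers present) at DN2, and the myeloid sum from 176 to 1703 CPM (median 845, 7 of 8 markers present) and from 46.1 to 111 CPM (median 74.1, 2 of 8 markers present). Here and below a marker counts as present at a mean of 1 CPM or more. The natural killer and innate lymphoid list holds Il7r and Gata3, which thymocytes also express, so its sum does not measure those cells alone. The part of these markers in the result was not tested.

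No member passed the threshold between DN2 and DN3 in edgeR, none at an unadjusted p under 0.05 and none in DESeq2. Of all genes 4.35% changed, and 14.1% had an unadjusted p under 0.05. The member median was -0.10, and the single values ran from -0.54 to 0.43. Within each of these 2 stages the members varied more between libraries than S phase genes did. The SD of the member mean over the DN2 libraries was 0.73 log2 units against 0.24 for the S phase mean, and at DN3 it was 0.51 against 0.18. Plk1 shows this at DN3, with 200.2, 84.96, 227, 146, 261, 219.7, 58.6 and 65.8 CPM in the 8 libraries, in order of replicate. Replicates 1, 3, 5 and 6 were high, 2, 7 and 8 low, and 4 between. No label names a batch or a mouse that would separate those libraries.

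Log2 fold changes from DN2 to DN3 were -0.12 for Cenpa, -0.21 for Ndc80, 0.25 for Aurkb, 0.39 for Plk1 and 0.22 for Cdk1. For Ccnb2, Kif11, Prc1, Mki67 and Top2a they were -0.26, -0.13, -0.17, -0.17 and -0.17.

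Between DN3 and DN4, 4 members (9.09%) rose, a share near the 7.47% of all genes that did. All 44 had a fold change above 0, with a median of 0.62. Cenpk, an inner kinetochore subunit of the group that includes CENP-H and CENP-I, ran from 8.398 to 22.3 CPM (median 14.2) at DN3 and from 16.4 to 44.1 CPM (median 28.98) at DN4, with a log2 fold change of 1.01 ± 0.31 (SE, adjusted p = 0.0242). Kif15, a kinesin that supports the bipolar spindle, ran from 22.02 to 66.5 CPM (median 46.4) and from 68.5 to 115 CPM (median 91.8), with a log2 fold change of 0.92 ± 0.26 (SE, adjusted p = 0.0139). Mki67 rose by 0.84 ± 0.28 and Plk4, the kinase of centriole duplication, by 0.68 ± 0.18 on the log2 scale. DN3 and DN4 libraries did not overlap for 2 of the 44 members, Kif15 and Ccnb2, and for 1.81% of all genes in that direction, and Ccnb2 did not pass the threshold.

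The other representatives had log2 fold changes of 0.64 (Cenpa), 0.76 (Ndc80), 0.41 (Aurkb), 0.55 (Plk1), 0.50 (Cdk1), 0.85 (Ccnb2), 0.74 (Kif11), 0.48 (Prc1) and 0.63 (Top2a), none past the threshold. Of the S phase genes 21 of 36 rose, Ccne1 (cyclin E1) by 1.41. Red cell markers also moved: 5 of the 5 tested rose, their sum running from 0.139 to 5.44 CPM (median 2.45, 0 of 6 markers present) at DN3 and from 118 to 3182 CPM (median 706, 5 of 6 markers present) at DN4. Of the 6 B cell markers 5 rose, their sum running from 51.6 to 114 CPM (median 80.6, 2 of 6 markers present) at DN3 and from 40.96 to 1281 CPM (median 74.9, 6 of 6 markers present) at DN4. The part of either marker list in the result was not tested. The count of 4 was 8 with DESeq2 (where 9.04% of all genes rose), 14 with only these 2 stages in the fit (7.85%) and 0 with all libraries of the run in 1 fit (3.63%).

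From DN4 to DP, 18 members fell and none rose, with a median of -0.63; 25.0% of all genes fell. The count differed between roles, a difference that was not tested. Of the centromere and inner kinetochore members, 5 of 7 fell (median -1.24), of the outer kinetochore 3 of 8 (median -0.52), of the passenger complex and shugoshins 3 of 6, of the kinases with Tpx2 2 of 6, of the kinesins 2 of 9 and of the cyclins with Foxm1 2 of 3. None of the 3 central spindle and cytokinesis members passed (median -0.26).

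Cenpk (ENSMUSG00000021714, GRCm38 chromosome 13, 104228611 to 104252392) showed the largest fall, from levels of 16.4 to 44.1 CPM (median 28.98) at DN4 to levels of 2.53 to 10.5 CPM (median 8.301) at DP, with a log2 fold change of -1.89 ± 0.34 (SE, adjusted p = 1.29e-05). Its DN4 and DP libraries did not overlap. Cenph (ENSMUSG00000045273, chromosome 13, 100759674 to 100775899), which encodes a partner of CENP-K, fell, from levels of 30.1 to 55.5 CPM (median 41.6) to levels of 1.99 to 30.2 CPM (median 12.1), with a log2 fold change of -1.67 ± 0.34 (SE, adjusted p = 7.38e-05). Its highest DP library reached just into the DN4 range. Cenpw (ENSMUSG00000075266, chromosome 10, 30194569 to 30200560), which pairs with CENP-T on centromeric DNA, fell, from levels of 37.98 to 111 CPM (median 71.7) to levels of 10.8 to 38.5 CPM (median 20.7), with a log2 fold change of -1.64 ± 0.27 (SE, adjusted p = 2.9e-06). Its highest DP library also just overlapped the lowest DN4 library. In the outer kinetochore, log2 fold changes were -1.46 ± 0.44 for Ska1, of the microtubule-tracking Ska complex, -1.14 ± 0.35 for Spc24 and -0.98 ± 0.38 for Nuf2, the partner of Ndc80.

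Cdk1 fell, from levels of 122 to 372 CPM (median 244) to levels of 57.3 to 173 CPM (median 121), with a log2 fold change of -1.04 ± 0.35 (SE, adjusted p = 0.0136). Plk1 had levels of 79.99 to 314 CPM (median 256) and 34.9 to 188 CPM (median 136), and did not pass, with a log2 fold change of -0.93 ± 0.41 (SE, adjusted p = 0.0577). Both genes had overlapping DN4 and DP libraries. Aurkb fell, from levels of 119.8 to 386 CPM (median 322) to levels of 75.1 to 196 CPM (median 179), with a log2 fold change of -0.80 ± 0.31 (SE, adjusted p = 0.0291), and Ccnb2 from levels of 255 to 358 CPM (median 320.0) to levels of 74.4 to 299 CPM (median 153), with a log2 fold change of -0.82 ± 0.31 (SE, adjusted p = 0.0295). Mki67 fell, with a log2 fold change of -0.72 ± 0.29 (adjusted p = 0.0402).

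Other members had values nearer 0. Cenpf, a large corona protein of the outer kinetochore, ran from 35.2 to 134 CPM (median 77.2) at DN4 and from 21.4 to 101 CPM (median 82.5) at DP, with a log2 fold change of 0.01 ± 0.36 (SE, adjusted p = 0.99). The log2 fold changes were -0.01 ± 0.31 for Cenpe (the kinetochore kinesin), -0.12 ± 0.33 for Foxm1 (a transcription factor of mitotic genes), -0.15 ± 0.27 for Kif23 (of the central spindle), -0.17 ± 0.39 for Prc1 and -0.34 ± 0.31 for Cenpa. They were -0.47 ± 0.36 for Ndc80, -0.37 ± 0.30 for Kif11 and -0.47 ± 0.26 for Top2a. Neither Cenpf nor any of these 8 passed the threshold, which does not show that they were equal at the 2 stages.

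All 36 S phase genes fell at this step (median -1.62), Mcm10 with a log2 fold change of -2.36 ± 0.33. Of the 72 other mitotic genes 22 fell and 2 rose. Their log2 fold changes included -1.85 for Cenps and -1.66 for Cenpx, both of the inner kinetochore, and 2.07 for the checkpoint gene Mad1l1. The mean over members minus the mean over S phase genes lay between -1.90 and -1.05 log2 units in the DN4 libraries and between -0.86 and -0.14 in the DP libraries, with no overlap. Members with TTTGAA within 50 bases of the start had a median of -0.47 (21 members) and those without it -0.72 (15 members), a description with no test. The red cell marker sum was 118 to 3182 CPM (median 706, 5 of 6 markers present) at DN4 and 0.495 to 11.5 CPM (median 1.36, 2 of 6 markers present) at DP. Of the 6 B cell markers 5 fell, with sums of 40.96 to 1281 CPM (median 74.9, 6 of 6 markers present) at DN4 and 36.2 to 64.5 CPM (median 46.5, 2 of 6 markers present) at DP. The part of either list in the result was not tested. With all libraries of the run in 1 fit the count of 18 was 6, or 13.6% of the members, where 17.6% of all genes fell.

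**Figure D2:**
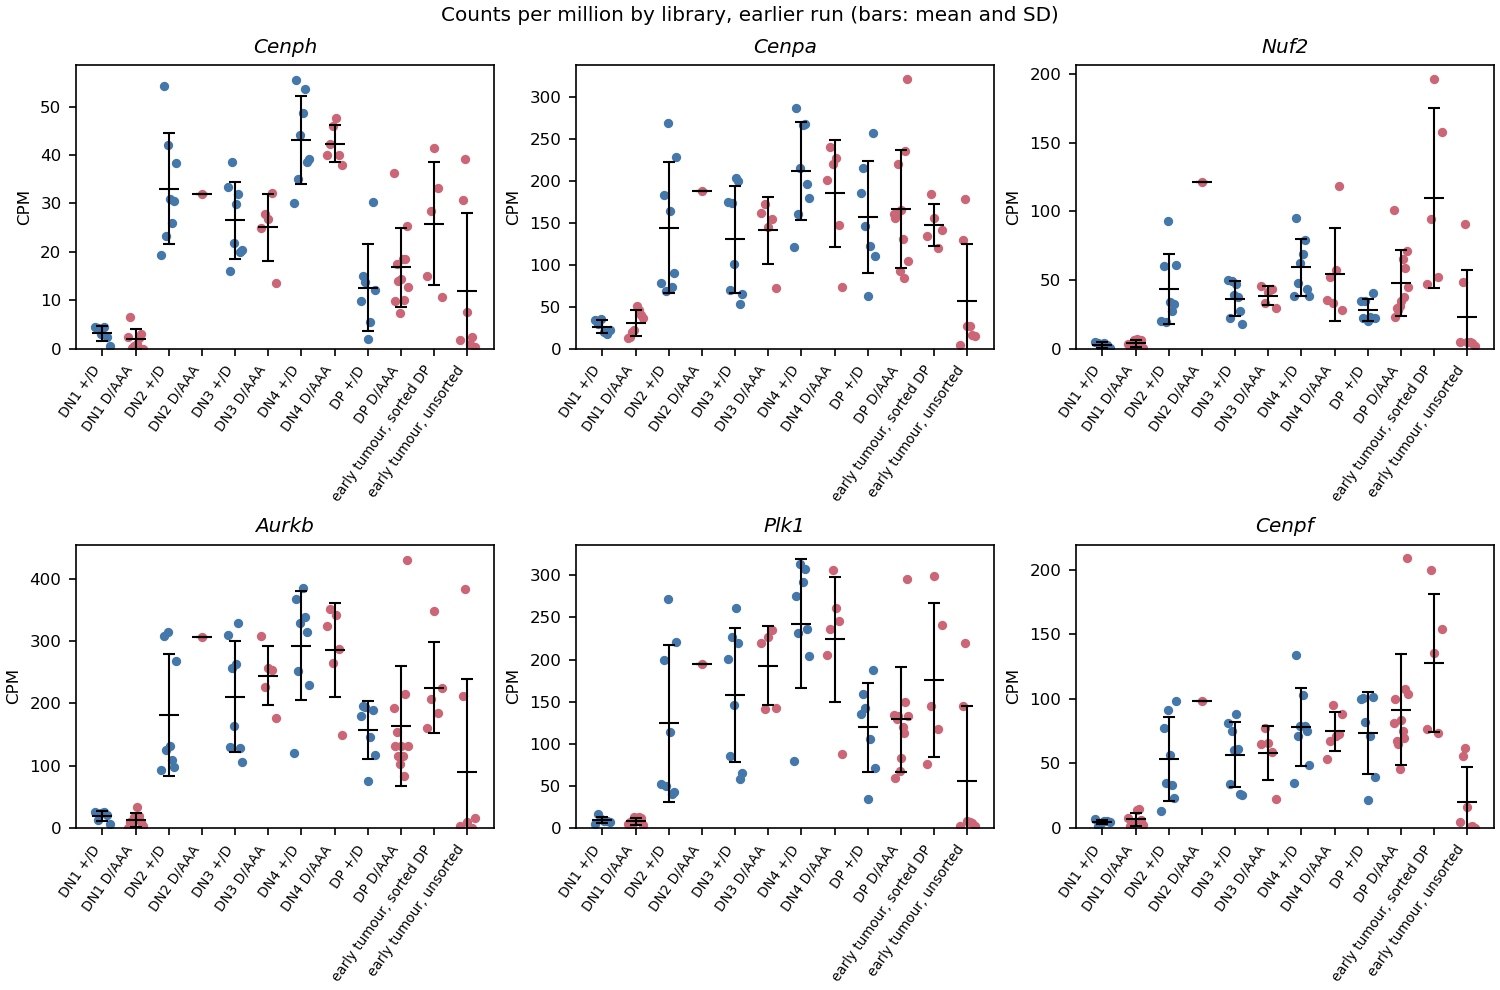
CPM (y axis, from 0) of 6 members in each library of the earlier run by group (x axis), with mean and SD as bars; blue points are +/D, red points D/AAA, and replicate 8 of DN1 D/AAA is left out. Cenph is lower at DP than at DN4, whereas the Cenpf ranges of the 2 stages overlap widely.

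D/AAA cells were compared with +/D cells at 4 sorted stages, and in none did a member pass the threshold. Few genes of any kind did: 0% at DN1, 0% at DN3, 0.00810% at DN4 and 0.00803% at DP. DESeq2 called no member at any of the 4 stages. At an unadjusted p under 0.05 edgeR had 0 of 43 tested members at DN1, 5 of 44 at DN3, 0 of 44 at DN4 and 1 of 44 at DP. Of all genes 2.75%, 4.25%, 6.46% and 10.6% had such a p at these stages. The median log2 fold changes of the members were 0.14, 0.24, -0.03 and 0.28 in that order. A test of whether the genotype difference depended on stage called no member either, against 0.134% of all genes; Cenpe had the lowest p (0.0158, adjusted p = 0.4 in edgeR's quasi-likelihood F-test).

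At DN3, 41 of 44 members had a value above 0. Members vary together between libraries, so their signs are not independent, here and in the other counts of signs. The member mean ran from 5.323 to 6.493 log2 CPM in the +/D DN3 libraries and from 5.863 to 6.471 in D/AAA. Ect2, the exchange factor that starts the cleavage furrow, had the largest: its 5 D/AAA libraries had 57.5, 34.8, 64.2, 60.4 and 56.5 CPM, and the +/D libraries ran from 26.96 to 53.3 CPM (median 32.2), with a log2 fold change of 0.66 ± 0.21 (SE, adjusted p = 0.995). The groups overlapped. At DP, Nuf2 ran from 20.4 to 40.3 CPM (median 22.9) in +/D and from 22.8 to 101 CPM (median 37.4) in D/AAA, with a log2 fold change of 0.81 ± 0.28 (SE, adjusted p = 0.33), again with overlap. Plk1 at DP ran from 34.9 to 188 CPM (median 136) in +/D and from 58.8 to 296 CPM (median 129.6) in D/AAA.

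The log2 fold changes of the representatives at DP were 0.12 (Cenpa), 0.32 (Ndc80), 0.10 (Aurkb), 0.15 (Plk1), 0.51 (Cdk1), 0.24 (Ccnb2), 0.34 (Kif11), 0.32 (Prc1), 0.26 (Mki67) and 0.36 (Top2a). At DN4 they lay between -0.14 (Cenpa) and 0.08 (Top2a), at DN3 between 0.12 (Cenpa) and 0.47 (Prc1), and at DN1 between -0.55 (Aurkb) and 0.74 (Prc1). The DN1 fit kept the shallow D/AAA replicate 8, which had 246.0 CPM of Prc1, while the others ran from 0.582 to 31.64 CPM. The mean of the member means was 2.33 log2 CPM in D/AAA DN1 and 2.64 in +/D DN1. The D/AAA libraries were on the whole shallower, with a median of 5373182 counts at DP against 6972708 in +/D. At DN4 the red cell marker sum was 1825 to 37100 CPM (median 15680, 6 of 6 markers present) in D/AAA, above most of the +/D range given earlier. Leaving out D/AAA libraries below the +/D depth range, an alternative chosen after seeing the data, also called no member at any stage.

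DP cells sorted from early tumours were set against the D/AAA DP cells and against the D/AAA DN4 cells, 2 comparisons that share the tumour libraries. Against DP no member passed in edgeR, 8 had an unadjusted p under 0.05, 43 of 44 values were above 0, and the median was 0.46. DESeq2 called 1 member, higher, where 3.56% of all genes were higher. In edgeR 0% of all genes passed and 22.2% had an unadjusted p under 0.05, a larger share than the 18.2% of members. Nuf2 had 47.3, 94.5, 196, 52.3 and 158 CPM in the 5 early tumours and ran from 22.8 to 101 CPM (median 37.4) in the DP libraries, with a log2 fold change of 1.18 ± 0.35 (SE, adjusted p = 0.0972). Cdk1 had 177, 268, 443, 245 and 305 CPM and ran from 50.2 to 404 CPM (median 133), with a log2 fold change of 0.89 ± 0.35 (SE, adjusted p = 0.152). For both genes the highest early tumour lay above every DP library and the lowest did not. Without early tumour 1, 4 members were higher, where 5.43% of all genes were. Without DP libraries 1 and 5, which an earlier analysis of these data found to carry more chromosome 15 RNA, 3 were, where 9.4% of all genes were.

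The remaining representatives had log2 fold changes against DP of -0.19 (Cenpa), 0.55 (Ndc80), 0.44 (Aurkb), 0.43 (Plk1), 0.28 (Ccnb2), 0.59 (Kif11), 0.13 (Prc1), 0.21 (Mki67) and 0.70 (Top2a). Against DN4 no member passed either, where 4.31% of all genes did, with 4 members (20.1% of all genes) at an unadjusted p under 0.05, 0 in DESeq2 and a median of 0.06. Without early tumour 3, 1 member was lower, where 3.14% of all genes were. The representatives lay between -0.32 (Plk1) and 0.48 (Top2a). S phase genes fell in 6 of 36 cases. The early tumours were shallower, with totals from 2701382 to 5178274 counts. Their Cd4 ran from 121 to 1186 CPM, against 307.1 to 1980 in D/AAA DP, and did not pass. The natural killer and innate lymphoid marker sum was 171.6 to 2175 CPM (median 618.1), against 99.06 to 877.2 (median 156.9) in D/AAA DP. The T cell stage marker sums overlapped, at 4617 to 13300 and 5825 to 13340 CPM. The part of these markers in the result was not tested.

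The unsorted early tumours fell into libraries far apart. The mean over the 44 members was 2.06, 6.29, 6.84, 3.09, 1.71, 1.78 and 1.96 log2 CPM in the 7 libraries, and ran from 5.40 to 7.14 (median 6.02) in the D/AAA DP libraries. Libraries 2 and 3 lay within the DP range and the other 5 below all of it. Those 5 lay within the range of the D/AAA DN1 libraries, 1.11 to 3.45 log2 CPM (median 2.28). No test set these tumours against DN1. All 44 fold changes were below 0 (median -1.18) and 4 members (9.09%) fell, a smaller share than the 13.2% of all genes.

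Cenpf had 4.26, 55.5, 61.6, 16.4, 0.933, 1.78 and 0 CPM in these tumours and ran from 45.4 to 209 CPM (median 81.3) in DP, with a log2 fold change of -2.16 ± 0.76 (SE, adjusted p = 0.0383). Nek2, a kinase of centrosome separation, had 7.72, 32.1, 94.2, 3.91, 0.311, 2.98 and 6.97 CPM and ran from 27.8 to 179 CPM (median 82.4), with a log2 fold change of -2.03 ± 0.71 (SE, adjusted p = 0.0389). Cenpa had 4.53, 129, 178, 26.6, 26.7, 16.7 and 14.7 CPM and ran from 84.7 to 321 CPM (median 160.1), with a log2 fold change of -1.54 ± 0.55 (SE, adjusted p = 0.0429). For each gene libraries 2 and 3 lay within the DP range and the other 5 below it. Incenp, the scaffold of the passenger complex, fell with a log2 fold change of -1.40 ± 0.39.

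The other representatives had -1.13 ± 0.76 (Ndc80), -0.87 ± 0.91 (Aurkb), -1.19 ± 0.77 (Plk1), -1.06 ± 0.80 (Cdk1), -1.12 ± 0.73 (Ccnb2), -1.31 ± 0.94 (Kif11), -1.55 ± 0.71 (Prc1), -0.95 ± 0.67 (Mki67) and -1.34 ± 0.81 (Top2a) as log2 fold change and SE, none past the threshold. The marker sum of natural killer and innate lymphoid cells was 540.4 to 6934 CPM (median 5983, 10 of 10 markers present) here and 99.1 to 877 CPM (median 157, 6 of 10 markers present) in DP, while Cd4 averaged 9.85 CPM here and 1285 in DP. Of the B cell and red cell markers tested, all 5 and all 3 rose, with sums of 28.99 to 1794 CPM (median 614, 6 of 6 markers present) and 0.775 to 23400 CPM (median 374, 5 of 6 markers present) here. In D/AAA DN1 cells the natural killer and innate lymphoid sum was 307.5 to 5997 CPM (median 4961, 10 of 10 markers present). The part of these markers in the result was not tested. Chosen after seeing the data, a fit without libraries 2 and 3 had all 44 members lower, where 22.1% of all genes were lower. Libraries 2 and 3 are the ones with the highest Il2ra and the highest red cell marker sum. These are also the 2 libraries whose member means lay within the DP range, so that count follows in large part from which libraries were removed and is no support for the fall. The count was 9 with DESeq2 (16.1% of all genes fell), 18 with all libraries of the run in 1 fit (13.2%) and 1 without the low-count filter (6.6%).

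In whole thymus no member passed between D/AAA and +/D: edgeR called 0, 0 had an unadjusted p under 0.05, DESeq2 called 0, and of all genes 0% passed and 8.21% had an unadjusted p under 0.05. The D/AAA libraries spread more widely. Their member mean ran from 3.36 to 5.22 (median 4.17) log2 CPM, against 4.07 to 4.55 (median 4.26) in the 6 +/D libraries, and the S phase mean ran from 4.09 to 5.98 against 4.55 to 4.92. The +/D values lay inside the D/AAA range for both lists. T cell genes also spread more widely in D/AAA thymus. Cd4 ran from 6.444 to 673.1 CPM there and from 456.5 to 598.7 CPM in +/D thymus. Cd8b1 ran from 128.9 to 1099 CPM and from 884.5 to 1191 CPM. The part of cell composition in the spread was not tested.

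Plk1 ran from 45.1 to 62.1 CPM (median 50.2) in +/D thymus and from 11.9 to 91.2 CPM (median 55.8) in D/AAA thymus, with a log2 fold change of 0.10 ± 0.30 (SE, adjusted p = 0.957). Cenph, with the largest value of the set, ran from 1.301 to 7.88 CPM (median 3.35) and from 1.02 to 15.6 CPM (median 4.38), with a log2 fold change of 0.88 ± 0.58 (SE, adjusted p = 0.705). The remaining representatives lay between -0.33 (Cenpa) and 0.35 (Aurkb). D/AAA thymus with MYCChr6 (3 libraries) against D/AAA thymus gave no member past the threshold in edgeR, with 0 at an unadjusted p under 0.05 (3.55% of all genes), 0 in DESeq2 and 0.0252% of all genes called; the member median was 0.26, and the representatives lay between 0.20 (Prc1) and 0.60 (Ccnb2). The red cell marker sum ran from 171 to 59530 CPM (median 6556, 6 of 6 markers present) in those 3 libraries and from 19.3 to 1989 CPM (median 640.2, 5 of 6 markers present) in D/AAA thymus, and its part was not tested.

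D/AAA tumours had higher levels of most members than +/D thymus. Of the 44 members 29 rose and none fell (median 0.74), where 22.4% of all genes rose. Against D/AAA thymus 19 rose and none fell (median 0.58), where 18.1% of all genes did. The 2 comparisons share the tumour libraries: 18 members rose in both, 11 only against +/D thymus, 1 (Cenpf) only against D/AAA thymus and 14 in neither.

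By role the counts differed, again without a test of the difference. Against +/D thymus 5 of the 7 centromere and inner kinetochore members rose, with a role median of 1.34, against 0.51 for the outer kinetochore (3 of 8 rose), 0.75 for the kinases with Tpx2 (5 of 6), 0.89 for the passenger complex and shugoshins (4 of 6), 0.64 for the kinesins (6 of 9) and 0.36 for cytokinesis (1 of 3). All 3 cyclin and Foxm1 members rose, as did Mki67 and Top2a.

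Cenph ran from 1.301 to 7.88 CPM (median 3.35) in +/D thymus, from 1.02 to 15.6 CPM (median 4.38) in D/AAA thymus and from 6.47 to 21.8 CPM (median 15.5) in the 22 tumours. The lowest tumours overlapped the highest thymus libraries of either genotype. The rise was 2.005 ± 0.29 against +/D thymus (adjusted p = 1.88e-06) and 1.12 ± 0.31 against D/AAA thymus (adjusted p = 0.00506) on the log2 scale. Nuf2 (ENSMUSG00000026683, chromosome 1, 169497934 to 169531464) ran from 5.42 to 9.85 CPM (median 7.26) in +/D thymus and from 9.91 to 36.7 CPM (median 20.5) in the tumours, and every tumour lay above every +/D thymus, with a log2 fold change of 1.53 ± 0.26 (SE, adjusted p = 1.5e-05). Cdca8 (borealin, of the passenger complex) ran from 25.8 to 45.9 CPM (median 36.8) and from 59.8 to 119 CPM (median 88.3), also without overlap, with a log2 fold change of 1.29 ± 0.15 (SE, adjusted p = 3.86e-08). Kif15 was the third member without overlap (log2 fold change 1.01 ± 0.20), and 4.04% of all genes were higher in tumours without overlap.

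Cenpm, Cenpw and Cenpn of the inner kinetochore rose by 1.39 ± 0.25, 1.38 ± 0.23 and 1.34 ± 0.26. Against D/AAA thymus the largest rises were those of Cenpn (1.24 ± 0.38), Cenph and Cenpm (1.01 ± 0.24). Cenpa had a value below 0. It ran from 65.9 to 102 CPM (median 74.3) in +/D thymus and from 25.9 to 136 CPM (median 62.1) in tumours, with wide overlap, with a log2 fold change of -0.26 ± 0.19 (SE, adjusted p = 0.281). Prc1 ran from 45.7 to 81.1 CPM (median 57.5) and from 17.5 to 117 CPM (median 64.6), with a log2 fold change of 0.05 ± 0.22 (SE, adjusted p = 0.879). Neither change passed the threshold.

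Aurkb rose, from levels of 31.8 to 55.7 CPM (median 38.3) in +/D thymus to levels of 36.03 to 122 CPM (median 89.7) in tumours, with a log2 fold change of 1.07 ± 0.18 (SE, adjusted p = 1.47e-05), and overlapped only at the edge of the ranges. Log2 fold changes against +/D thymus were 0.73 ± 0.24 (Plk1), 0.87 ± 0.17 (Cdk1), 0.60 ± 0.20 (Ccnb2), 0.61 ± 0.20 (Kif11), 0.72 ± 0.15 (Mki67) and 0.71 ± 0.15 (Top2a), each past the threshold, and 0.29 ± 0.19 (Ndc80), not past it. Against D/AAA thymus, Aurkb (0.72), Cdk1 (0.64), Ccnb2 (0.61), Mki67 (0.58) and Top2a (0.55) rose. Plk1 (0.63), Kif11 (0.45), Ndc80 (0.19), Prc1 (0.11) and Cenpa (0.07) did not pass there.

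Of the other mitotic genes 44 of 72 rose against +/D thymus and 1, Mad1l1, fell (-2.11 ± 0.15), and Bub1b, the checkpoint kinase BubR1, rose by 1.85 ± 0.22. S phase genes rose in 31 of 36 cases (median 1.26). Of 14 T cell stage markers 9 fell and 1 rose, with sums of 2477 to 10980 CPM (median 4887, 14 of 14 markers present) in tumours and 6938 to 8586 CPM (median 8053, 14 of 14 markers present) in +/D thymus. Of the 5 B cell markers tested 4 fell, with sums of 0 to 71.5 CPM (median 7.88, 4 of 6 markers present) in tumours and 27.4 to 149.8 CPM (median 57.1, 6 of 6 markers present) in +/D thymus. Against D/AAA thymus all 5 red cell markers tested fell, with sums of 6.64 to 1414 CPM (median 51.9, 5 of 6 markers present) in tumours and 19.3 to 1989 CPM (median 640.2, 5 of 6 markers present) in D/AAA thymus. Their part in the result was not tested.

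The members that fell most from DN4 to DP in the earlier run tended to be those that differed most between tumour and thymus in the later run. Across the 44 members the 2 sets of log2 fold changes, which share no library, had a Pearson r of -0.63 and a Spearman rho of -0.61, given as a description because genes are not independent and mitotic genes vary together. The 5 members lowest at DP, Cenpk, Cenph, Cenpw, Ska1 and Cenpm, had changes of -1.24 or lower there and 1.06 or higher in tumours. Next came Spc24, Cdk1 and Kif15, with -1.14, -1.04 and -1.02 at DP and 0.86, 0.87 and 1.01 in tumours. The 8 members highest at DP lay between -0.25 and 0.01 there and were spread in tumours: 0.05 (Prc1), 0.11 (Kif23), 0.32 (Cenpe), 0.50 (Kif18a), 0.62 (Cenpf), 0.64 (Kif22), 0.66 (Incenp) and 0.96 (Foxm1).

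**Figure D3:**
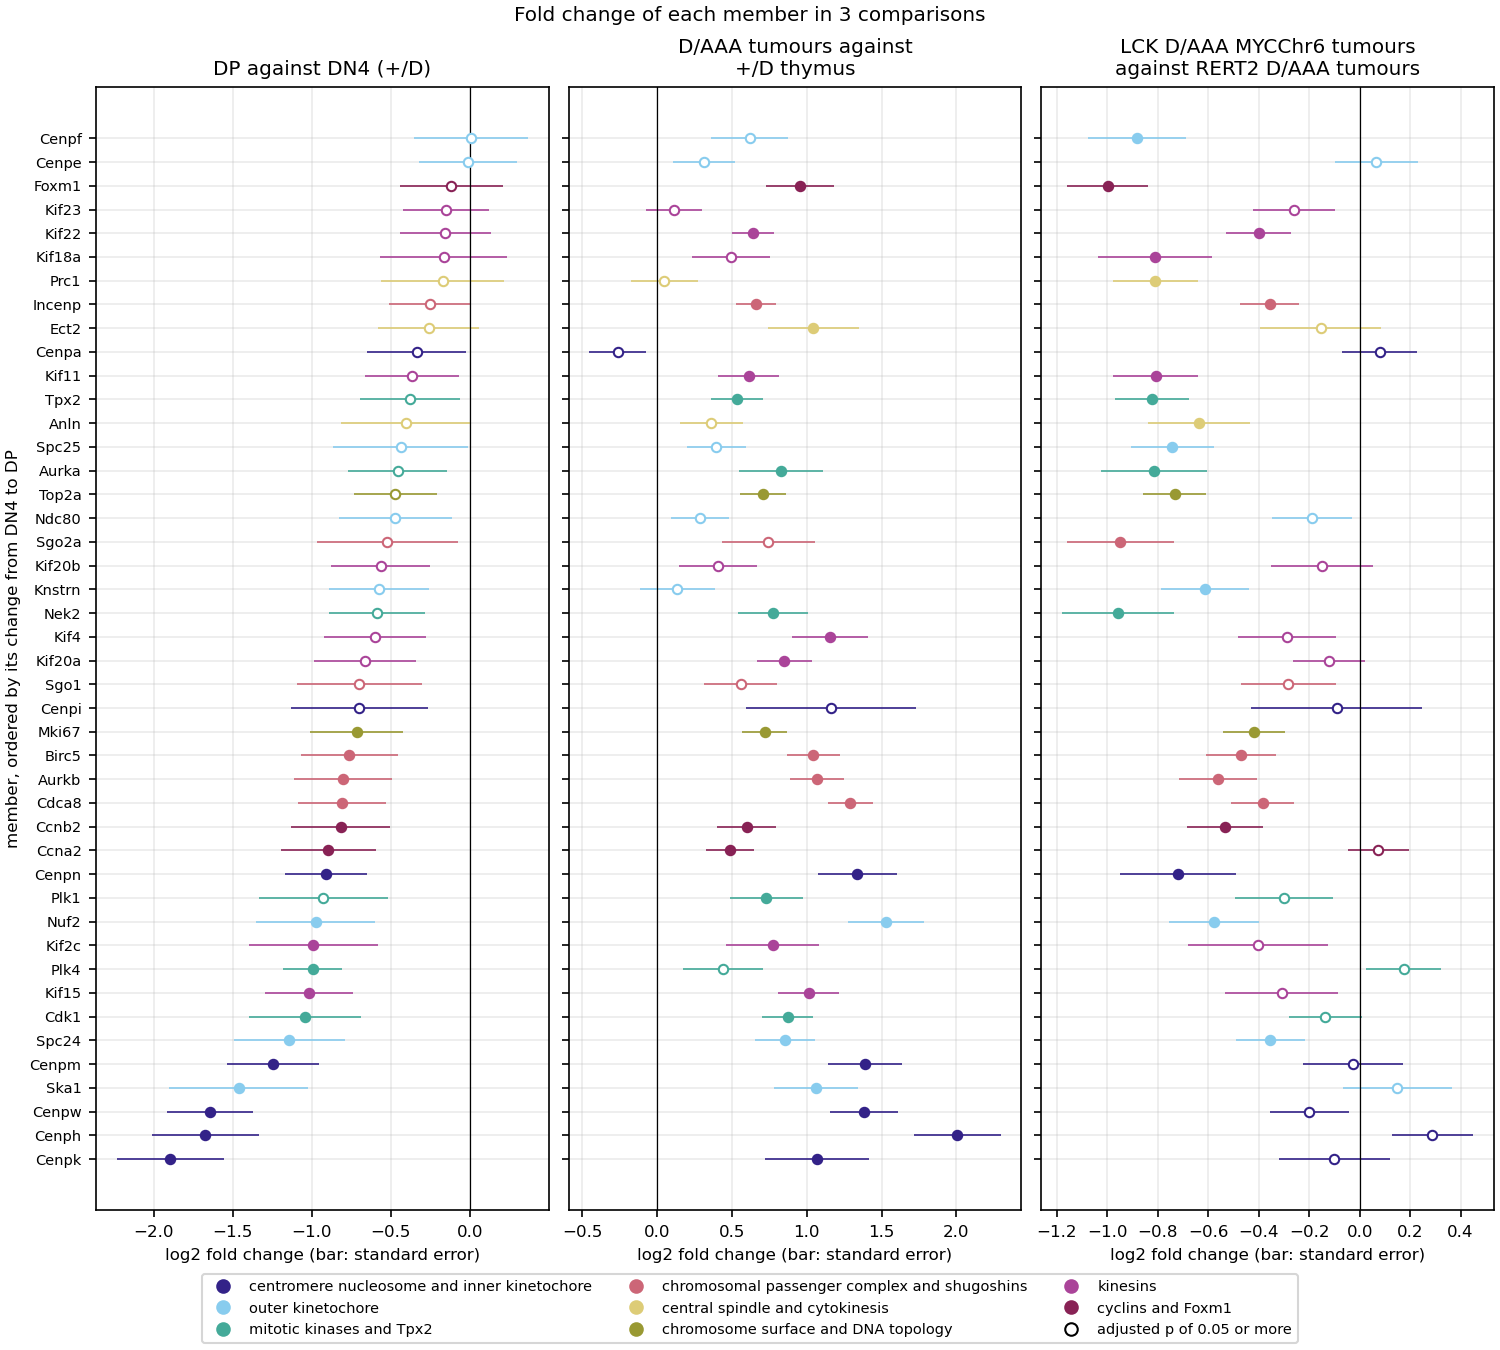
Log2 fold change (x axis; bar, standard error) of each member (y axis, ordered by its change from DN4 to DP) in 3 comparisons, coloured by role, with filled points for an adjusted p under 0.05. Cenpk, Cenph and Cenpw lie at the bottom of the first panel and far to the right in the second, while in the third the filled points are mostly outside the inner kinetochore.

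In tumours that also carried p53(+/D) (10 libraries), 1 member rose against the other D/AAA tumours, where 0.742% of all genes rose. Cdca8 ran from 59.8 to 119 CPM (median 88.3) in D/AAA tumours and from 75.5 to 169.8 CPM (median 128) with p53(+/D), with a log2 fold change of 0.48 ± 0.11 (SE, adjusted p = 0.0205), with overlap. Another 4 members had an unadjusted p under 0.05 only, and 14.4% of all genes had such a p: Aurkb (0.45 ± 0.14), Birc5 (survivin of the passenger complex, 0.32 ± 0.14), Kif2c (the microtubule depolymerase MCAK, 0.48 ± 0.19) and Mki67 (-0.29 ± 0.12). Cdca8 and Kif2c, the members with the largest rises, both lie on chromosome 4, where no other member lies. The part of that chromosome in the result was not tested. The remaining representatives lay between -0.38 (Prc1) and 0.30 (Ccnb2), and the member median was -0.04. DESeq2 called 2 members, both higher, where 1.54% of all genes were higher. A fit of the whole run called none, where 1.06% of all genes were higher.

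MYCChr6 in RERT2 D/AAA tumours (3 libraries) went with 3 lower members and none higher, where 3.57% of all genes were lower. Tpx2, the activator of Aurora A on the spindle, had 36.9, 46.8 and 27.7 CPM in them and ran from 45.1 to 103 CPM (median 81.9) in D/AAA tumours, with a log2 fold change of -1.04 ± 0.26 (SE, adjusted p = 0.00964). Anln had 13.3, 13.2 and 5.72 CPM and ran from 12.5 to 36.4 CPM (median 19.7), with a log2 fold change of -0.95 ± 0.30 (SE, adjusted p = 0.0436). Cdca8 had 46.99, 52.4 and 63.4 CPM, with a log2 fold change of -0.69 ± 0.19 (SE, adjusted p = 0.0176). For Tpx2 and Cdca8 2 of the 3 MYCChr6 tumours lay below every D/AAA tumour, and for Anln 1 did, so the groups overlapped for each gene.

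The representatives had 0.15 (Cenpa), -0.22 (Ndc80), -0.30 (Aurkb), -0.40 (Plk1), 0.36 (Cdk1), -0.48 (Ccnb2), -0.73 (Kif11), -0.94 (Prc1), -0.50 (Mki67) and -0.42 (Top2a), none past the threshold. Of the 6 B cell markers 5 rose, with sums of 6.21 to 318 CPM (median 242, 6 of 6 markers present) in the MYCChr6 tumours and 0 to 71.5 CPM (median 7.88, 4 of 6 markers present) in D/AAA tumours. Of the 14 T cell stage markers 7 fell, with sums of 1438 to 1920 CPM (median 1742, 9 of 14 markers present) and 2477 to 10980 CPM (median 4887, 14 of 14 markers present) that did not overlap, and of the 6 myeloid markers tested 1 rose. The part of these markers in the result was not tested. The count of 3 was 5 with DESeq2 (where 6.55% of all genes were lower) and 1 in a fit of the whole run (2.3%). It was 1 without MYCChr6 tumour 1 (2.29%) and 1 without MYCChr6 tumour 3 (1.72%). Without tumour 2 it was 3 (2.46%), but Cdca8 and Anln were no longer among them. Anln passed in none of the fits that left out 1 of these tumours, and Tpx2 was lost without tumour 3.

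LCK-Cdc20(D/AAA) tumours with MYCChr6 (14) had 23 lower members and none higher than RERT2 D/AAA tumours, with a median of -0.37; 16.7% of all genes were lower. The element and MYCChr6 changed together, so their parts cannot be told apart. By role, 5 of 8 outer kinetochore, 3 of 6 kinase and Tpx2, 5 of 6 passenger and shugoshin, 2 of 3 cytokinesis, 3 of 9 kinesin and 2 of 3 cyclin and Foxm1 members fell, with Mki67 and Top2a, but of the 7 inner kinetochore members 1 did (Cenpn, -0.72 ± 0.23). The 3 members lower in RERT2 MYCChr6 tumours were also lower here, in a comparison with the same RERT2 tumours.

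Foxm1 ran from 27.2 to 73.5 CPM (median 38.6) in RERT2 D/AAA tumours and from 10.4 to 32.1 CPM (median 20.2) in the LCK tumours, with a log2 fold change of -0.999 ± 0.16 (SE, adjusted p = 6.36e-06). Nek2 ran from 15.8 to 60.5 CPM (median 27.5) and from 4.88 to 32.8 CPM (median 13.8), with a log2 fold change of -0.96 ± 0.22 (SE, adjusted p = 0.000936). Sgo2a, also a shugoshin, ran from 3.24 to 29.7 CPM (median 16.1) and from 3.47 to 11.3 CPM (median 8.61), with a log2 fold change of -0.95 ± 0.21 (SE, adjusted p = 0.000597). The ranges overlapped for each, and no member of the set separated these tumour groups fully, nor did most genes (0.117% were lower without overlap). Cenph, by contrast, ran from 6.47 to 21.8 CPM (median 15.5) and from 7.14 to 29.3 CPM (median 18.04), with a log2 fold change of 0.29 ± 0.16 (SE, adjusted p = 0.168), and did not pass.

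Among the representatives, Aurkb (-0.56 ± 0.15), Ccnb2 (-0.53 ± 0.15), Kif11 (-0.81 ± 0.17), Prc1 (-0.81 ± 0.17), Mki67 (-0.42 ± 0.12) and Top2a (-0.73 ± 0.13) fell. Cenpa (0.08 ± 0.15), Ndc80 (-0.19 ± 0.16), Plk1 (-0.30 ± 0.19) and Cdk1 (-0.14 ± 0.14) did not pass. Of the other mitotic genes 23 of 72 fell and 5 rose, and of S phase genes 14 of 36 fell and 1, Ccne1, rose by 1.64. The myeloid marker sum was 120.5 to 2453 CPM (median 390.3, 7 of 8 markers present) in the LCK tumours and 21.8 to 157 CPM (median 59.7, 5 of 8 markers present) in the RERT2 tumours, and the B cell sum 2.15 to 1346 CPM (median 54.05, 6 of 6 markers present) and 0 to 71.5 CPM (median 7.88, 4 of 6 markers present). Of the 14 T cell stage markers 6 fell and 1 rose, with sums of 477 to 3980 CPM (median 1427, 13 of 14 markers present) and 2477 to 10980 CPM (median 4887, 14 of 14 markers present). The part of these markers in the result was not tested. Without LCK tumour 9, an alternative chosen after seeing the data, 22 members were lower, where 17.1% of all genes were.

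Within LCK tumours carrying MYCChr6, no member passed between D/AAA (14) and +/D (4): edgeR called 0, DESeq2 called 0, 2 had an unadjusted p under 0.05 (Ccna2, cyclin A2, and Ndc80), and of all genes 0% passed and 5.11% had such a p. Ndc80 had 5.65, 8.36, 8.94 and 9.75 CPM in the +/D tumours and ran from 5.11 to 21.9 CPM (median 13.3) in the D/AAA tumours, with a log2 fold change of 0.76 ± 0.31 (SE, adjusted p = 0.959). The groups overlapped. The other representatives lay between -0.26 (Top2a) and 0.29 (Prc1).

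**Figure D4:**
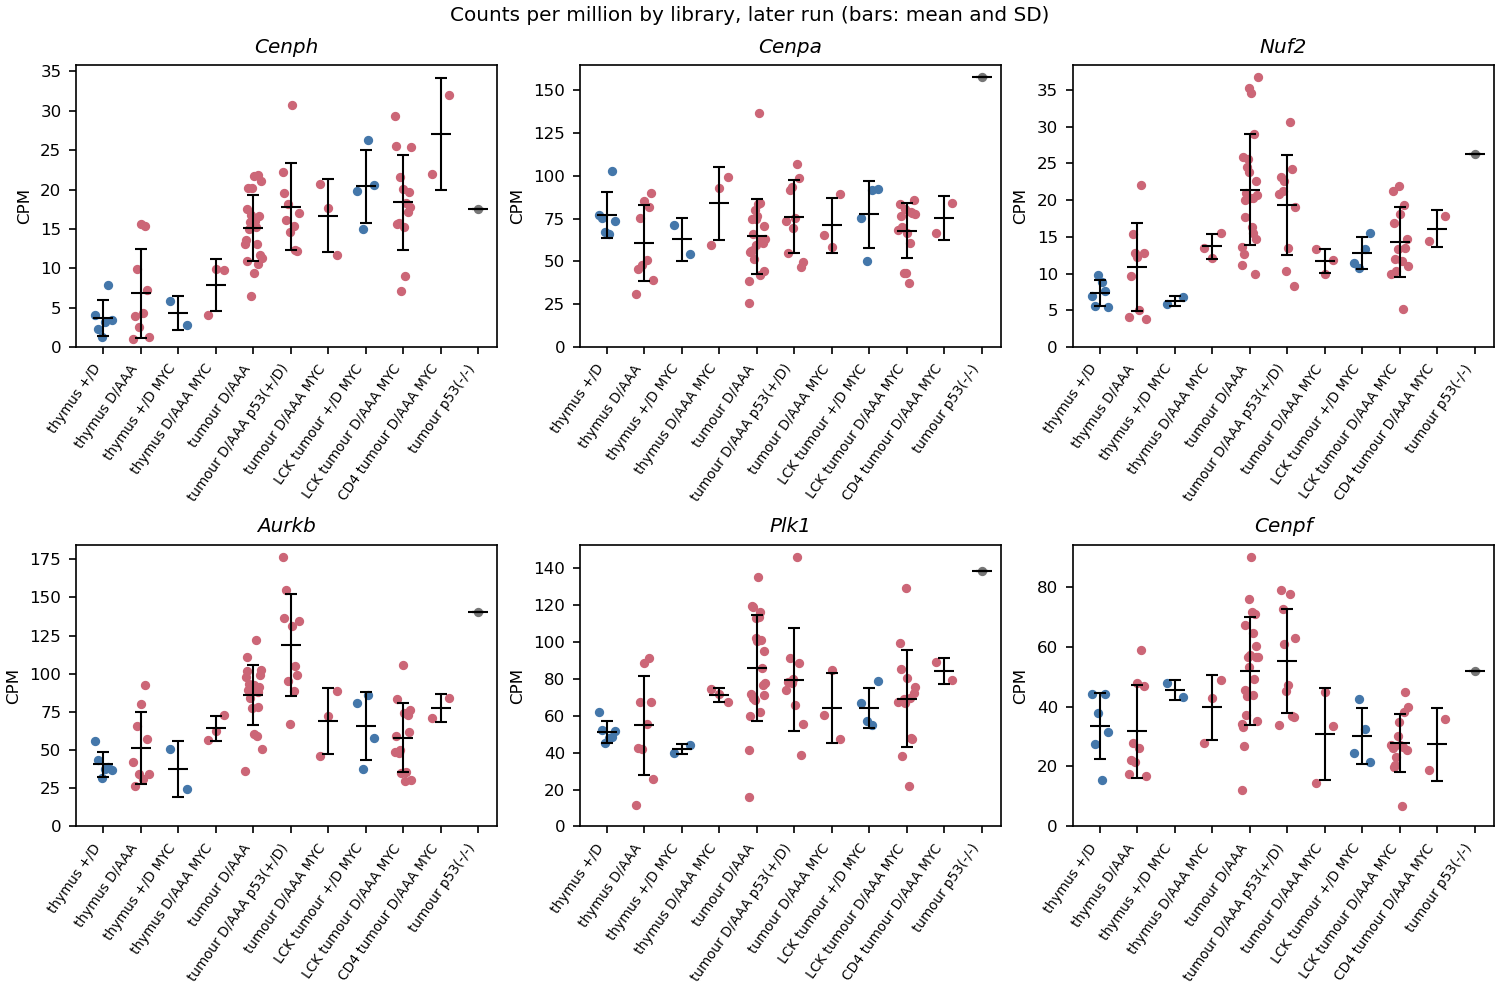
CPM (y axis, from 0) of 6 members in each library of the later run by group (x axis), with mean and SD as bars; blue is +/D, red is D/AAA and grey the single p53(-/-) tumour. Cenph and Nuf2 are higher in tumours than in +/D thymus, Cenpa ranges overlap widely, and Cenpf is lower in LCK than in RERT2 D/AAA tumours.

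Across libraries of the same group, members varied together in both runs, though not equally. The correlation of a member with the mean of the other 43, on log2 CPM centred by group, had a median of 0.80 over 79 libraries of the earlier run (range 0.49 to 0.94) and of 0.62 over 75 libraries of the later run (range 0.25 to 0.81). These values are descriptions, since the libraries share sequencing runs and differ in depth. In the earlier run the highest were Cdca8, Plk1, Birc5, Top2a and Cdk1 and the lowest Cenpi, Kif18a, Incenp, Cenpk and Foxm1. In the later run the highest were Cdk1, Plk1, Birc5, Tpx2 and Incenp and the lowest Cenpi, Kif4, Mki67, Plk4 and Ndc80. Within groups of the earlier run, the member mean spread most in the unsorted early tumours, with an SD of 2.22 over 7 libraries. The next widest group, DN1 D/AAA, had an SD of 0.90. Those tumours therefore weigh heavily on the earlier-run correlations, here and in the next paragraph.

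Outside the set, the genes whose group-centred level followed the member mean most closely in the earlier run were Ube2c (r 0.93), Tacc3 (0.92), Pclaf (0.91), Stmn1 (0.91), Hmgn2 (0.91), Cdca3 (0.90), Gm15428 (0.90), Rrm2 (0.89), Knl1 (0.89) and Tmpo (0.88), of 21390 genes compared. In the later run they were Gm4739 (0.89), Hmgb2 (0.83), Gm8203 (0.81), Cks2 (0.80), Mcm7 (0.80), Cdca3 (0.79), Gm15452 (0.79), H2afz (0.79), Anp32e (0.78) and Racgap1 (0.78), of 20855. The Gm names are predicted genes and their counts are uncertain if they share reads with a parent gene.

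**Figure D5:**
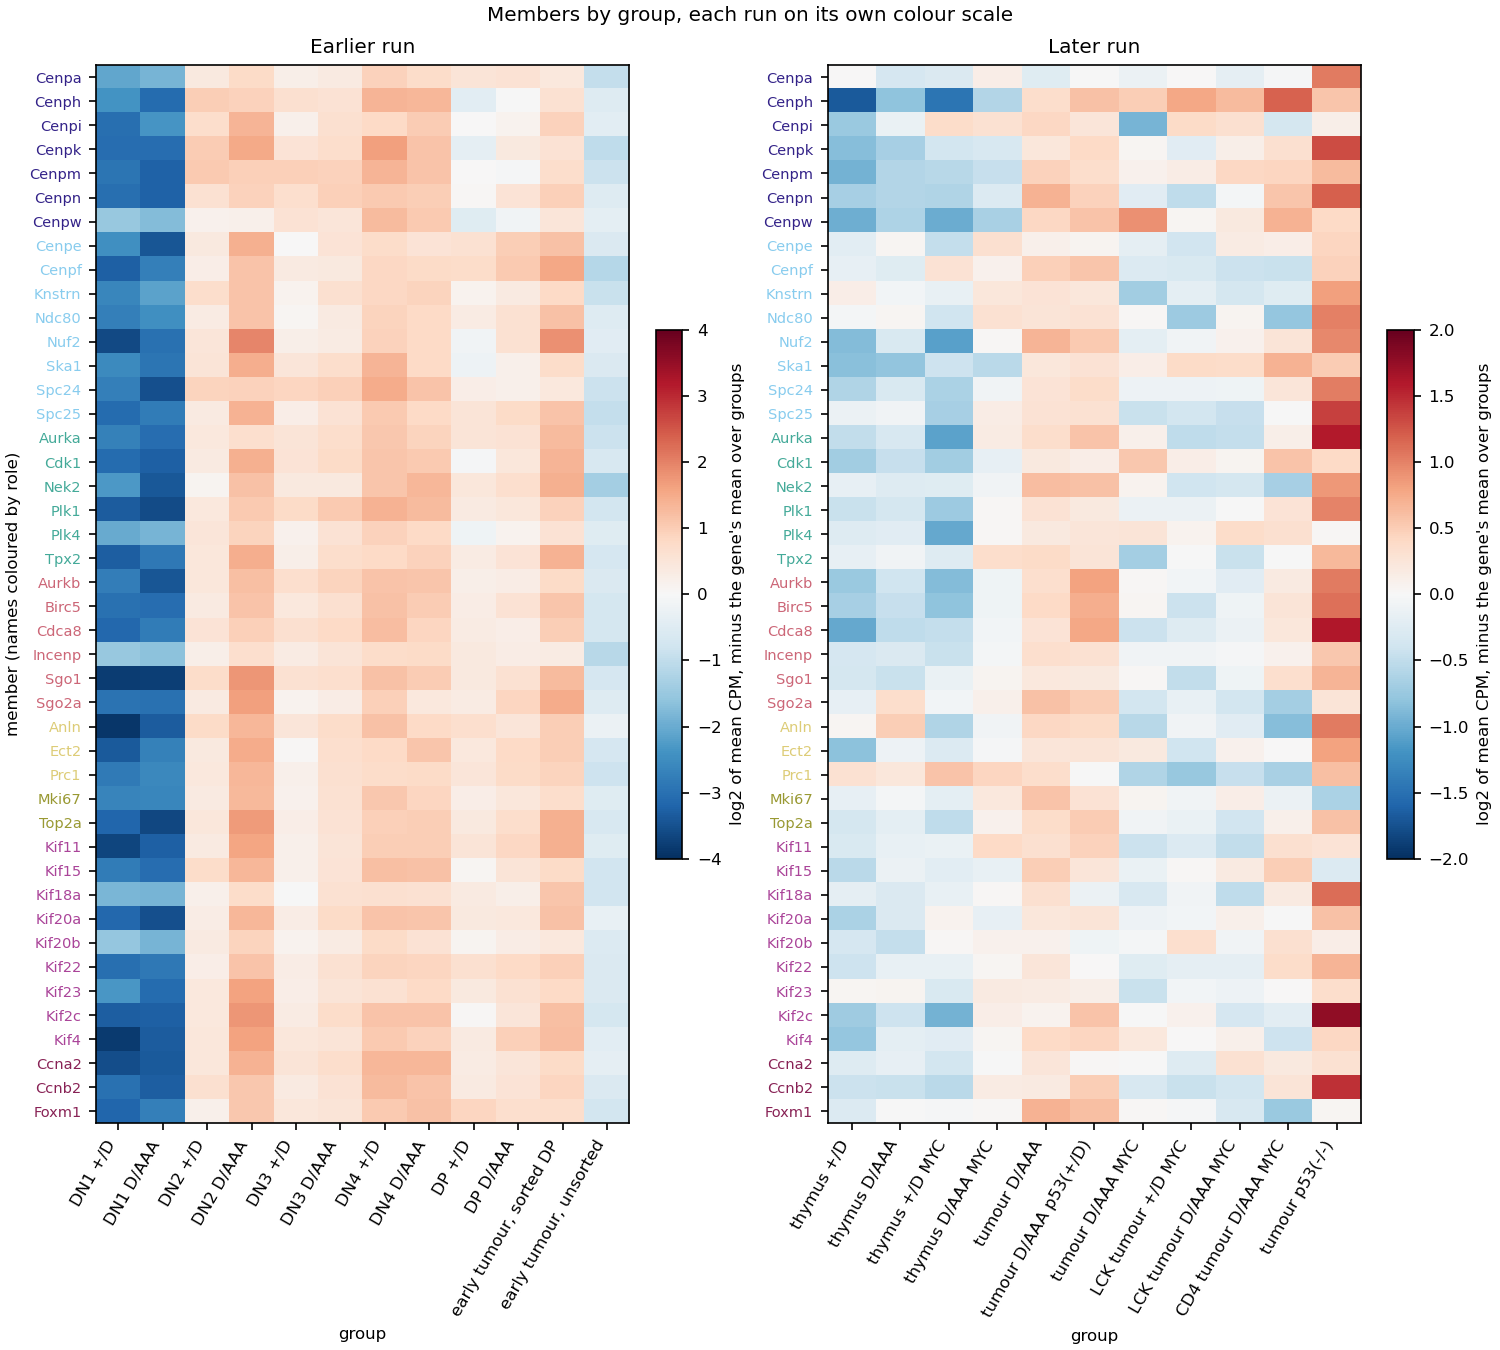
Log2 of mean CPM of each member (y axis, names coloured by role) in each group (x axis), minus the gene's mean over the groups of its run, with a colour scale for each run; DN1 D/AAA is shown without replicate 8. The DN1 columns are low for every member, and in the later run Cenph is lower in +/D thymus than in any tumour group.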

How the data were processed

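Gene counts from 157 libraries were read from 2 tables, 1 per run. The authors deposited expected counts per gene (every value whole), and FastQC, STAR 2.5.3a, RSEM 1.3.0 and the build GRCm38 are named, per the submitters' processing notes. With gene annotation, strand setting and read filters not given in the sources used here, overlapping genes and near copies are uncertain. Replicate numbers follow accession order and name libraries only.

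Each run was tested on its own with edgeR 4.0.16 in R 4.3.3: filterByExpr, TMM factors, a robust quasi-likelihood fit and Benjamini-Hochberg adjustment over all genes tested, 2-sided, with a threshold of 0.05. The 4 stage steps share 1 fit of 37 +/D libraries; the genotype-by-stage test used 4 stages, and other comparisons their 2 groups. Levels are TMM-scaled CPM; mean levels use log2 CPM with a prior count of 2. Values with no group overlap were counted from CPM. As alternatives, the counts of calls were recomputed in DESeq2 1.42.0, with RLE in place of TMM factors, with no filter, the whole run in 1 fit, only 2 stages, CT010467.1 left out, and libraries left out. The fitting code was tested on simulated data.

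All members may be named; the text gives up to 3 with the largest change past the threshold in each direction, and 10 representatives of the roles (Cenpa, Ndc80, Aurkb, Plk1, Cdk1, Ccnb2, Kif11, Prc1, Mki67, Top2a), or their range where none passed. Other lists give up to 4 genes with the largest change. Members and lists were chosen with earlier results of these data known. Gene names matched 50462 of the 50686 IDs in GENCODE M21. Promoter windows came from a RefSeq table on GRCm38.p6, which gave 36 members.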

Additional observations from a re-analysis of the deposited data

Results flagged for a closer look

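Of 154 checks of the 10 representatives and the member mean in groups of 4 to 10 libraries, 13 found a lowest or highest library standing apart from the rest of its group; chance alone flags about 1 in 20 groups. Replicate 8 of DN1 D/AAA, with 21199 counts in all, was highest in its group for Ndc80 (30.75 CPM), Cdk1 (153.8 CPM), Ccnb2 (369.0 CPM), Kif11 (61.5 CPM), Prc1 (246.0 CPM) and Top2a (123.0 CPM). DN3 D/AAA replicate 5 was lowest for Cenpa (71.79 CPM, others 144.8 to 172.2). DN4 D/AAA replicate 5 was highest for Top2a (631.3 CPM), and replicate 6 had the lowest mean over the 44 members (6.023 log2 CPM). DN4 +/D replicate 1 was lowest for Plk1 (79.99 CPM, others 204.0 to 313.8). In +/D thymus, replicate 5 was highest for Cenpa (102.5 CPM) and Ccnb2 (85.85 CPM). Replicate 7 of the p53(+/D) tumours was highest for Plk1 (146.3 CPM).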

How the results depend on the processing

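The number of members past the threshold was recomputed in 128 further settings and stayed within 1.5 times its value in 110 of them. Most of those 110 belong to comparisons whose count was 0 and stayed 0, where the rule says little about stability. The 18 that moved belong to 7 comparisons. From DN3 to DN4 the 4 became 8 with DESeq2, 14 with only the 2 stages fitted and 0 with the whole run in 1 fit. From DN4 to DP the 18 became 6 with the whole run in 1 fit. Sorted early tumours against DP went from 0 to 1 with DESeq2 and 3 without DP D/AAA libraries 1 and 5, and leaving out early tumours in turn gave 0 to 4; against DN4 it gave 0 to 1. Unsorted early tumours went from 4 to 9 with DESeq2, 1 with no filter, 18 in 1 fit and 44 without tumours 2 and 3, a setting chosen after seeing the data that removes the 2 libraries with the highest member means. The p53(+/D) count went from 1 to 2 with DESeq2 and 0 in 1 fit. The RERT2 MYCChr6 count went from 3 to 5 with DESeq2 and 1 in 1 fit, and leaving out its tumours in turn gave 1 to 3. The causes were not tested. Where a count moved, the share of all genes in that setting is given with its comparison above. Of 761 values for single members past the threshold, 717 stayed past it, 44 did not and 0 changed sign. The DN1 to DN2 step alone gave 220 of the 761 values, and all 220 stayed. No paired analysis was possible because the labels give no replicate numbers or animals. Depth limits DN1 D/AAA replicate 8 (21199 counts). Small groups (3 to 5 libraries) limit the RERT2 MYCChr6 tumour and thymus comparisons and the genotype comparison within LCK tumours. They also limit the sorted early tumour comparisons and D/AAA at DN3.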

Other observations

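Regulators of mitotic transcription, a list of the MuvB, E2F and pocket proteins, changed in both directions in 3 of the 4 comparisons given here. From DN1 to DN2, 7 of 13 rose and 2 fell, with a rise of Mybl2 (B-Myb) by 4.32 ± 0.38 and E2f8 by 4.87 ± 0.46 (log2 fold change and SE). From DN4 to DP, 3 rose and 5 fell (median -0.33): Mybl2 fell (-1.46 ± 0.31) while Rbl2, the pocket protein p130 of the repressive DREAM complex, rose by 1.67 ± 0.21. In D/AAA tumours against +/D thymus, 4 of 12 rose and 2 fell (median 0.00): Mybl2 rose by 2.09 ± 0.36 and Rbl2 fell (-1.47 ± 0.21). In LCK D/AAA MYCChr6 tumours 2 of 12 fell against RERT2 D/AAA tumours, among them E2f8 (-1.61 ± 0.19). The shares of all genes that rose and fell were 24.6% and 23.9%, 24.5% and 25.0%, 22.4% and 19.1%, and 18.6% and 16.7% in these 4 comparisons. Each gene named had an adjusted p under 0.05 in edgeR.

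Some groups entered no test. The single DN2 D/AAA library had a member mean of 6.92 log2 CPM, just above the +/D DN2 range of 4.86 to 6.91. The 2 +/D thymus libraries with MYCChr6 had 4.41 and 4.30, and the 2 CD4-Cdc20(D/AAA) tumours with MYCChr6 4.87 and 4.82. The p53(-/-) tumour had 5.49, with Aurka at 80.3 CPM and Cenpa at 158 CPM, each above every D/AAA tumour (highest 65.6 CPM for Aurka and 136 CPM for Cenpa).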
